A study of Mus musculus with 5 samples.

Results

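The comparison described here sets the ventromedial hypothalamus (VMH) of mice collected 2 h after the last of 7 electroconvulsive shocks against the VMH of sham-treated mice collected at 2 h. It uses 2 of the 5 arrays of the study, 1 array on each side, chosen by their labels alone, and the array of 7 shocks at 2 h is called the treated array below. Electroconvulsive seizure is the animal counterpart of electroconvulsive therapy: a brief current drives a generalised seizure. All animals were C57Bl/6 mice. The treated mice were under isoflurane anesthesia and received bilateral current through ear clips, at 25 mA for 1 sec, with 100 pulses/sec and a pulse width of 0.5 msec. Sham mice went through the same handling with no current. The interval between the 7 shocks is not given in the sources used here. Each array holds RNA pooled from 2 or 3 animals, so the spread between animals cannot be seen. The nucleus was cut by laser from sections of 7 µm, and 2 ng of RNA was amplified for each array. The design text describes a second round of arrays with further animals, which are not analysed here. The question was how a course of 7 seizures leaves the transcripts of the VMH at 2 h, the time at which the sham was also taken.

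Neurons that fire strongly switch on immediate early genes within minutes, without new protein synthesis. Calcium and growth factor signals act through the factors CREB and SRF, which bind short DNA elements called the cyclic AMP response element (CRE) and the CArG box. The products of these genes, such as Fos, Jun and the Egr factors, are themselves transcription factors, and they regulate later effector genes that act at the synapse. The VMH is a glutamatergic nucleus that makes the peptide PACAP and the neurotrophin BDNF and is known for its part in satiety and energy expenditure.

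A signal was measured for 6650 genes by probe sets bright enough to be kept, and the brightest kept probe set stands for each gene. All readings below are deposited signals plus a small constant, scaled so that the median kept probe set is equal on every array, and readings of different genes are not comparable. A log2 difference is the reading after 7 shocks minus sham, so that 1 is 2-fold. With 1 array a side there is no replicate and no test of significance, and genes were called by size alone. At least 2-fold above sham were 437 genes, or 6.57% of all genes, and at least 2-fold below were 447, or 6.72%. In either direction the share was 13.3%. The middle of the distribution, from the 25th to the 75th percentile, ran from -0.38 to 0.39, and the median was 0.01. Without any rescaling the treated array was brighter by 0.50 on the log2 scale over its kept probe sets, and the counts were then 1324 above and 143 below. Every difference below is therefore relative to that shift, and a list median that lies under 0 by less than the shift lies above 0 without rescaling.

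The share of genes past 2-fold depended on brightness. With the genes split into 4 equal groups by brightness, it was 24.8% in the dimmest, 16.7% in the second, 9.15% in the third and 2.59% in the brightest. In that brightest group 27 genes were above and 16 below. Egr1, described next, lay in that brightest group, whereas Fos, Arc and Nab2 lay among dimmer genes, which passed 2-fold more often.

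**Figure D1:**
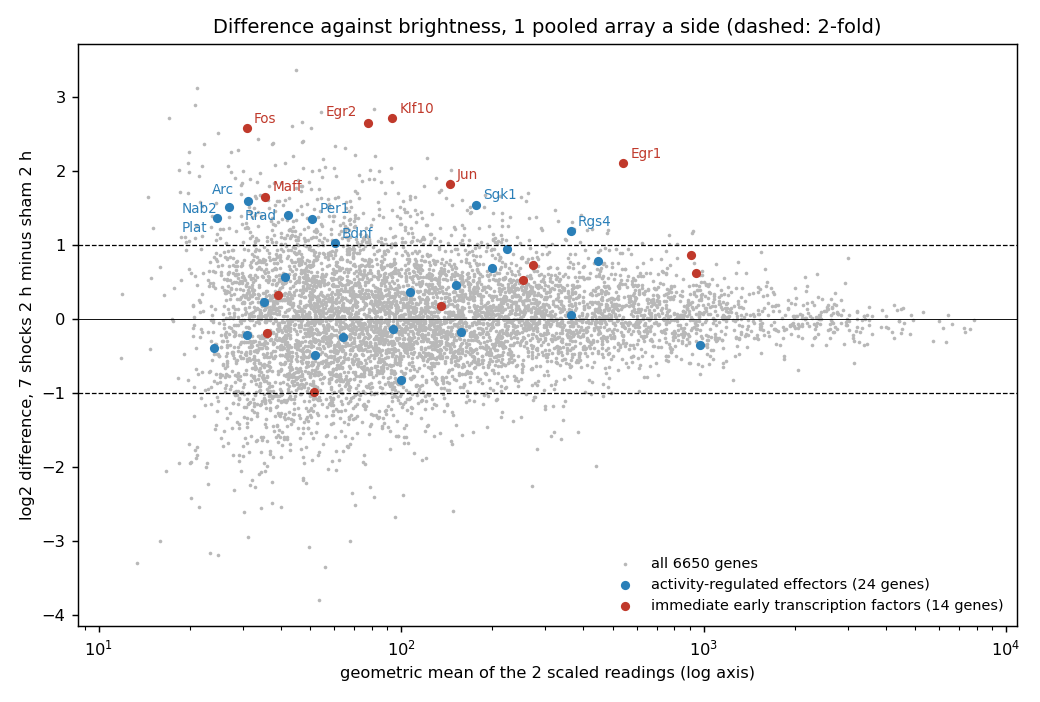
Log2 difference (7 shocks 2 h minus sham 2 h) of 6650 genes against the geometric mean of both scaled readings on a log axis, with 14 immediate early factors in red and 24 effectors in blue, each point from 1 pooled array a side. Dim genes scatter widely, so that Fos at 2.58 does not stand alone, while Egr1 at 2.11 lies above other genes of its brightness.

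Immediate early transcription factors were the pathway list with the highest median, 0.80 over 14 measured members against 0.01 over all genes. Of these, 6 passed 2-fold above sham (42.9%, against 6.57% of all genes) and 0 passed below. The filter can favour such a count, because it took the mean over 5 arrays of which only 1 was sham. A gene dim in sham could be kept through the shock arrays, while a gene high in sham alone was more easily left out. The list had 28 genes on the array, and the same limit holds for every list below. Klf10, a zinc finger repressor induced by growth factors, read 36.5 in sham and 239 after 7 shocks, a 6.55-fold difference (log2 2.71). It also read 200 at 2 h after 1 shock, 81.4 at 6 h after 1 shock and 170 at 6 h after 7 shocks, so the treated array was the highest of 5 and sham the lowest. Egr2, a zinc finger factor that binds GC-rich sites, read 31.2 in sham and 195 after 7 shocks (log2 2.64). Its readings on the other arrays were 172, 44.2 and 113 in the same order.

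Fos, the AP-1 subunit most used as a marker of neuronal activity, read 12.6 in sham and 75.6 after 7 shocks, a log2 difference of 2.58. The single-shock array of the same time read 185, so that the treated reading lay between sham and that array. Its deposited sham signal was only 9.4. Egr1, the bright member of the list, read 261 in sham and 1125 after 7 shocks (log2 2.11), with 1507 at 2 h after 1 shock and 327 and 308 on the 6 h arrays. Here the pair of 2 h arrays was high and the other 3 arrays lay close together.

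Jun, the AP-1 partner of Fos, read 77.0 in sham and 272 after 7 shocks, a log2 difference of 1.82, and its second probe set gave 1.71. Maff, a small Maf factor without an activation domain of its own, read 20.0 and 62.8 (log2 1.65). Under 2-fold were Jund at 0.87, the CArG-binding factor Srf at 0.74, Klf9 at 0.62 and Ier5 at 0.53. Myc, a growth-associated factor, lay at -0.99, with a reading of 72.2 in sham and 36.5 after 7 shocks. Klf9 had 5 kept probe sets that ranged from -0.73 to 0.62, so its direction was not settled.

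Several well-known members of this list were too dim to be kept, and for these only deposited signals can be given. Fosb was listed at 0.3 in sham and 39.1 after 7 shocks. Nr4a1 gave 16.2 and 28.8, Nr4a3 17.0 and 37.4, and Junb 8.2 and 1.1. Fosl1 fell from 38.1 to 9.9 and Atf3 from 10.2 to 0.5. Egr4 and Ier2 were below 2 on both arrays. After 7 shocks Fosb and Nr4a3 lay above the median deposited signal of that array, 31.6, and in sham Fosl1 lay above the median of 23.4. The other signals given here lay below these medians.

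**Figure D2:**
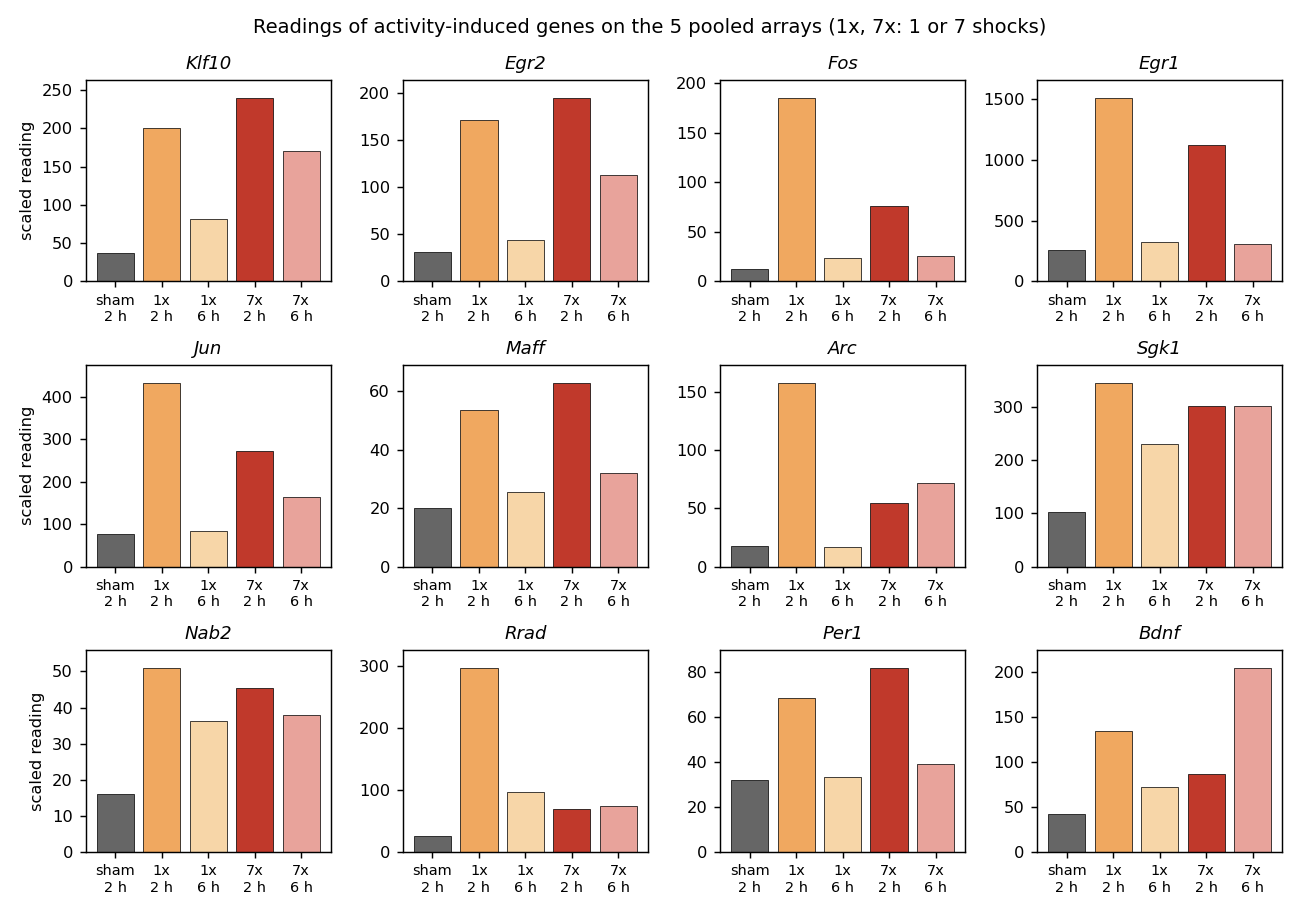
Scaled readings (linear axis from 0) of 12 activity-induced genes on the 5 pooled arrays, with 1 bar per array and no error bar because no group has a replicate. Klf10 at 239 and Egr2 at 195 were highest after 7 shocks at 2 h, whereas Fos, Egr1, Jun, Arc and Rrad were highest 2 h after 1 shock and Bdnf 6 h after 7 shocks.

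A few upstream stretches are shown because they hold the elements named above. The 14 immediate early and effector genes past 2-fold above sham were looked up in a RefSeq table of start sites (GRCm38.p6), which held 9 of them. The 250 bases before each start site were searched on both strands for the CRE (TGACGTCA), the AP-1 site (TGANTCA), the Egr site (GCGNGGGCG) and the CArG box, none of whose matches printed here overlapped another. Of the 27 start sites of these genes, 4 had a CArG box, all of them Egr2 starts, and 3 of these windows overlap and hold the same box, which leaves 2 distinct boxes. Of the others, 1 had a CRE and an Egr site (Maff) and 1 an AP-1 site (Bdnf), while Fos, Jun, Nab2, Per1, Rgs4 and Sgk1 had no match to these letters in this window. Pcsk1, a prohormone convertase, and the peptide gene Adcyap1, both described below, were looked up besides the 14. The CRE before Pcsk1 lies 78 bases upstream of its only listed start site, and Adcyap1 had no match before either of its listed starts. Capitals mark the match in each stretch, 5′ to 3′ on the plus strand: Egr2 at chr10:67537787-67537816 (CArG box), Maff at chr15:79347480-79347509 (CRE, 29 bases upstream of the start) and Pcsk1 at chr13:75089607-75089856 (CRE).
Egr2: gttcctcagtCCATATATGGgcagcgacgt
Maff: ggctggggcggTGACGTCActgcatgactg
Pcsk1: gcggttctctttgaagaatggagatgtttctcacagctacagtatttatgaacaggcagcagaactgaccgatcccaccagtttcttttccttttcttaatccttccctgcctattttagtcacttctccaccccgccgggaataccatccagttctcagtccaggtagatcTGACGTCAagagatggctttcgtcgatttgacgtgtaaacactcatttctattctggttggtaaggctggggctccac
Over the 7189 promoter entries of all measured genes, 2.64% held a CRE, 1.25% a CArG box, 4.01% an AP-1 site and 9.46% an Egr site in windows of this length. A match describes letters only.

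Effector genes regulated by activity had a median of 0.51 over 24 measured members, with 8 past 2-fold above sham (33.3%, against 6.57% of all genes) and 0 below. Arc, which drives the uptake of AMPA receptors at the synapse, read 54.3 after 7 shocks, 3.02-fold its sham reading (log2 1.60; deposited signals 63.6 and 13.9). It read 158 at 2 h after 1 shock. Sgk1, a kinase induced by glucocorticoids and by activity, read 104 and 303 (log2 1.55) and lay between 231 and 345 on the other arrays, so that sham stood alone below the rest. Nab2, the corepressor that limits Egr factors, read 15.9 and 45.4 (log2 1.51). Its relative Nab1 gave 0.46 and -1.95 on its probe sets.

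Rrad, a small GTPase that restrains calcium channels, read 25.8 in sham and 68.5 after 7 shocks (log2 1.41), against 296 on the single-shock 2 h array. Plat, the tissue plasminogen activator, differed by 1.37 and the clock gene Per1 by 1.36. Per1 read 81.4 after 7 shocks and 68.5 at 2 h after 1 shock, with 31.8 in sham and 33.3 and 38.9 on the 6 h arrays. Rgs4, a brake on G-protein signalling, differed by 1.19 on its brightest probe set, but its 3 probe sets reached down to -0.14.

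Bdnf read 42.2 in sham and 86.1 after 7 shocks, a log2 difference of 1.03 that lay at the threshold. The secreted pentraxin Nptx2 was under it at 0.95, as did the postsynaptic scaffold Homer1 at 0.69, although the 3 probe sets of Homer1 were all positive and reached 1.67. Tiparp showed how much the probe set can matter. Its brightest probe set gave -0.24 and another gave 2.11. The feedback inhibitors of MAP kinase and growth factor signalling, which are often induced with these genes, had a median of -0.01 over 13 members. Of them 0 passed 2-fold above sham, against 6.57% of all genes, a share at which few of 13 would pass. Lrig1, a brake on growth factor receptors, passed below at -1.15 (7.69% of the list, against 6.72% of all genes).

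Of neuropeptide precursors outside the arcuate list 12 were measured, at a median of 0.55, with 3 past 2-fold above sham (25.0%, against 6.57% of all genes) and 0 below. Adcyap1, which encodes the VMH peptide PACAP, read 611 in sham and 1375 after 7 shocks, a 2.25-fold difference (log2 1.17). Its readings on the other arrays were 900, 1341 and 1171, so sham was the lowest of 5. Penk, the enkephalin precursor, read 135 and 298 (log2 1.14), with 432 at 6 h after 7 shocks.

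Oxt, the oxytocin precursor of the paraventricular and supraoptic nuclei, read 16.4 in sham and 52.8 after 7 shocks (log2 1.69). Avp, which marks the same nuclei, was too dim to be kept, and its deposited signal was 7.1 in sham and 54.8 after 7 shocks. Trh, another paraventricular peptide, differed by 0.30. Nts, the neurotensin precursor, lay at 0.93 and the tachykinin precursor Tac1 at 0.61.

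Genes of peptide storage and processing followed with a median of 0.38 over 12 members. Of these, 10 were above 0 and 2 passed 2-fold (16.7%, against 6.57% of all genes). Ctsl, a protease of lysosomes and secretory granules, read 103 in sham and 278 after 7 shocks (log2 1.44). Pcsk1, the convertase that cuts prohormones, read 82.8 and 168 (log2 1.02) and was highest of 5 arrays after 7 shocks at 2 h. The granins Scg3 and Scg2 differed by 0.71 and 0.70, Chga by 0.50 and Chgb by 0.44, whereas the convertase Furin lay at -0.58.

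The arcuate feeding peptides did not share this pattern. Over 6 measured genes their median was -0.24, and it was 0.26 without rescaling. Tac2, the neurokinin B precursor, read 48.0 in sham and 15.0 after 7 shocks (log2 -1.68), and the appetite-stimulating peptide Npy read 85.8 and 41.0 (log2 -1.06). Both were at their highest 6 h after 7 shocks, at 80.9 for Tac2 and 117 for Npy. Pomc, the precursor of the satiety peptide alpha-MSH, differed by -0.34 and by -0.32 on its second probe set.

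Receptors for appetite and peptide signals gave no common direction, with a median of -0.06 over 9 members and 3 past 2-fold above sham (33.3%, against 6.57% of all genes). These were the cholecystokinin receptor Cckbr at 1.37 (0.98 on its second probe set), the somatostatin receptor Sstr2 at 1.23 and the neuropeptide Y receptor Npy1r at 1.21. Cckbr read 61.5 in sham, 159 after 7 shocks and 130 at 2 h after 1 shock, with both 6 h arrays lower. Npy1r rested on a reading of 16.9 in sham and was highest 6 h after 1 shock, at 65.4. The neurotensin receptor Ntsr2 lay at -0.77 and the serotonin receptor Htr2c at -0.73.

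In leptin and insulin signalling, with 22 measured genes and a median of 0.30, 4 genes passed 2-fold above sham (18.2%, against 6.57% of all genes) and 0 below. Ptpn1, the phosphatase that dampens both receptors, read 34.2 in sham and 106 after 7 shocks (log2 1.63), and its second probe set gave 0.73. The adaptor Sh2b1, which enhances leptin signalling, differed by 1.59 on readings of only 12.5 in sham and 37.6 after 7 shocks. The transcription factor Stat5b differed by 1.19 and Foxo1 by 1.01. The insulin receptor substrate Irs2 lay just under the threshold at 0.99. Stat5b, Foxo1 and Irs2 shared an order with the immediate early genes, in that the 2 h arrays after 1 and 7 shocks read above sham and above both 6 h arrays.

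Of 16 measured clock genes, 2 were past 2-fold above (12.5%, against 6.57% of all genes) and 1 below (6.25%, against 6.72%), with a median of 0.46. Beside Per1, Clock itself read 50.5 in sham and 129 after 7 shocks (log2 1.35), but its second probe set gave -0.06. Dbp, an output gene of the clock, read 513 and 228 (log2 -1.17), and its other probe set gave 0.22. For glucocorticoid-responsive genes the median was 0.25 over 19. Only Sgk1 and Per1, both also regulated by activity, passed 2-fold in it. The receptor cochaperone Fkbp5, a common readout of glucocorticoid action, differed by 0.87, and the pyruvate dehydrogenase kinase Pdk4 by -0.89.

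The metallothioneins, small metal-binding proteins, were below sham in all 3 measured cases, and without rescaling their median was still below 0, at -0.07. Mt3, the neuronal form, read 109 in sham and 40.8 after 7 shocks (log2 -1.42), with the other 3 arrays between 95.3 and 105, so the treated array stood alone. Mt2 differed by -0.58 and Mt1 by -0.18.

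Sterol genes had a median of 0.26 over 26 measured members, with 3 past 2-fold above sham (11.5%, against 6.57% of all genes) and 0 below. Lss, the lanosterol synthase, read 123 in sham and 332 after 7 shocks (log2 1.43), and its 3 probe sets gave 1.38 to 2.03. On its brightest probe set it was highest of 5 on the treated array, whereas its dimmest read 39.4 there and 114 at 6 h after 7 shocks. Tm7sf2, a sterol reductase, differed by 1.80 and the cholesterol carrier Stard4 by 1.52. Dhcr7, the last enzyme of cholesterol synthesis, lay at 0.97 and the exporter Abca1 at -0.86.

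Of 24 fatty acid genes 3 were past 2-fold above (12.5%, against 6.57% of all genes) and 2 below (8.33%, against 6.72%), with a median of 0.01, so the counts were near the shares over all genes. Hadha, of the mitochondrial trifunctional protein, differed by 1.71. Hadh, another enzyme of beta-oxidation, differed by 1.59 on its brightest probe set and by -0.40 on the lowest of its others. The carboxylase Acaca lay at 1.02, the desaturase Fads2 at -1.23 (-0.05 on its second probe set) and the glial fatty acid carrier Fabp7 at -1.01. In glycolysis, the median was 0.11 over 22 genes. Hk1 differed by 1.40 and the kinase Pdk1 by -1.11, but their second probe sets gave only 0.15 and -0.29.

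Extracellular matrix genes had the widest range of the 33 pathway lists. Of 20 measured collagens, laminins, integrins and related genes, 6 passed 2-fold above sham (30.0%, against 6.57% of all genes) and 3 below (15.0%, against 6.72%). The laminin chains themselves lay on both sides. Lamc1 read 178 in sham and 17.5 after 7 shocks (log2 -3.35) and Lamb1 read 60.0 and 14.4 (log2 -2.06), whereas Lama1 read 9.16 and 36.9 (log2 2.01) and Lamb3 40.1 and 105 (log2 1.38). The collagen Col1a2 differed by 1.73, the proteoglycan Vcan by 1.27, the integrin Itgb5 by 1.07, Col4a2 by 1.04 and the integrin Itga6 by -1.27. All 9 of these were represented by 1 kept probe set.

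Of 36 genes of cyclic AMP signalling, 3 were past 2-fold above (8.33%, against 6.57% of all genes) and 4 below (11.1%, against 6.72%), which is near the shares over all genes. The phosphodiesterases, which break down cyclic nucleotides, lay on both sides. Pde10a read 18.7 in sham and 118 after 7 shocks (log2 2.66), with 16.8, 21.0 and 39.1 on the other arrays, so the treated array stood alone. Pde7b differed by 1.39 and Pde1a by 1.22, against -2.61 for Pde1c and -1.72 for Pde8a. The cyclase Adcy7 lay at -1.67 and the G-protein subunit Gnaz at -1.21.

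In calcium signalling, the kinase Camk4, which phosphorylates CREB, read 29.5 in sham and 122 after 7 shocks (log2 2.05), with 0.44 on its second probe set. Camk1 differed by 1.36 and -0.11 on its probe sets, the kinase Prkce by 1.09 with -0.08 on its second probe set, and the calcineurin subunit Ppp3cc by -1.18.

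Voltage-gated channels had a median of 0.12 over 39 members, with 1 past 2-fold above (2.56%, against 6.57% of all genes) and 4 below (10.3%, against 6.72%). Those below were Kcnip3, a calcium-binding partner of Kv4 potassium channels and a transcriptional repressor also called DREAM, at -2.02, its relative Kcnip2 at -1.31, and the calcium channel subunits Cacnb1 at -1.46 and Cacna1c at -1.24. Kcnip3 read 115 in sham and 28.3 after 7 shocks, below the 66.2 to 84.0 of the other arrays. The potassium channel Kcna5 was above at 1.30. Among 51 genes of vesicle release, Rims2 gave -2.15 and 0.19 on its pair of probe sets, Rab3b at -1.18, Syt9 at -1.13 and Syt13 at 1.11. Of the 14 measured glutamate, GABA and glycine receptor subunits, 0 passed 2-fold in either direction (against 13.3% of all genes), with a range from -0.76 (Grik2) to 0.92 (Gabra3). Gad1, which makes GABA, gave -1.17, and 0.09 on its second probe set.

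The large housekeeping families stayed near the centre. Of 70 respiratory chain genes 1 passed 2-fold above (1.43%, against 6.57% of all genes) and 0 below, with a median of -0.03. In the brightest of the 4 groups of genes, with mean readings from 257, only 2.59% passed 2-fold in either direction. The share over all genes was not matched to the brightness of these families. That gene was Cox8a, at 1.17 with -0.75 on the dimmer probe set. Of 40 cytosolic ribosomal protein genes, 32 were below 0 and the median was -0.14, a direction that turned to 0.37 without rescaling. In that family Rpl12 stood apart at 2.22, with 152 on the treated array against 32.7 to 41.8 on the other 4, and Rps25 at -1.84. Of 51 proteasome and ubiquitin genes, Ube2g1 was at 1.55 and Psma4 at -1.02, with a median of 0.03.

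Nuclear regulators contributed several single genes. Among 52 chromatin genes 5 passed 2-fold above (9.62%, against 6.57% of all genes) and 1 below (1.92%, against 6.72%), so the count above was near that of all genes. Hdac7, a class II histone deacetylase, read 42.1 in sham and 156 after 7 shocks (log2 1.89), the histone methyltransferase Kmt2c differed by 1.23 and the demethylase Kdm3a by 1.13. The remodeler subunit Smarcc1 differed by 1.80 with -0.07 on its second probe set, and Kansl1 by 3.36, the largest difference of any gene above sham, with 0.01 on its second probe set. Among 67 splicing factors, the repressor Ptbp1 read 26.7 and 108 (log2 2.01), whereas the neuronal factor Rbfox1 read 454 and 196 (log2 -1.21) and Snrpn lay at -1.42. Of the 8 measured inflammation genes, the chemokine Cxcl12 lay at 2.21, with 38.0 in sham and 175 after 7 shocks, and the interferon-induced Ifit3 at -1.16.

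Of the 67 splicing factors 5 passed 2-fold above and 3 below, near the 6.57% and 6.72% of all genes. Sf3a2 lay at 3.12 on readings of 7.14 and 62.0, with a deposited sham signal of only 4.8. Srsf4 lay at 1.26 and Nova1 at 1.02, the 3 probe sets of Rbfox2 gave 0.39 to 2.08, and Snrpb2 gave -1.57 with 0.13 on its second probe set. In DNA repair and the cell cycle Rad54l, a recombination factor, lay at 2.90 on readings of 7.62 and 56.7, and the inhibitor Cdkn2d at 1.08. In the cytoskeleton the dynein chain Dync1li1 lay at 1.72 on readings of only 10.2 and 33.6. The tubulin Tubb6 lay at -1.90 and Map4 at -1.11, with 0.32 as the highest of its 3 probe sets.

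Of the Rab GTPases, which direct vesicle traffic, Rab4b lay at 1.26 and Rab33a at 1.04, and Rab23 gave -1.39 with 0.22 on its second probe set. Igfbp4, a binding protein of insulin-like growth factors, lay at 1.37, with 0.31 as the lowest of 4 probe sets. The chaperones Creld2 and Hspa1l lay at 1.14 and 1.23, the latter on readings of only 9.88 in sham and 23.1 after 7 shocks. The ubiquitin-conjugating enzyme Ube2s lay at 1.04, and the remodeler Ino80 read 39.9 in sham and 19.9 after 7 shocks.

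**Figure D3:**
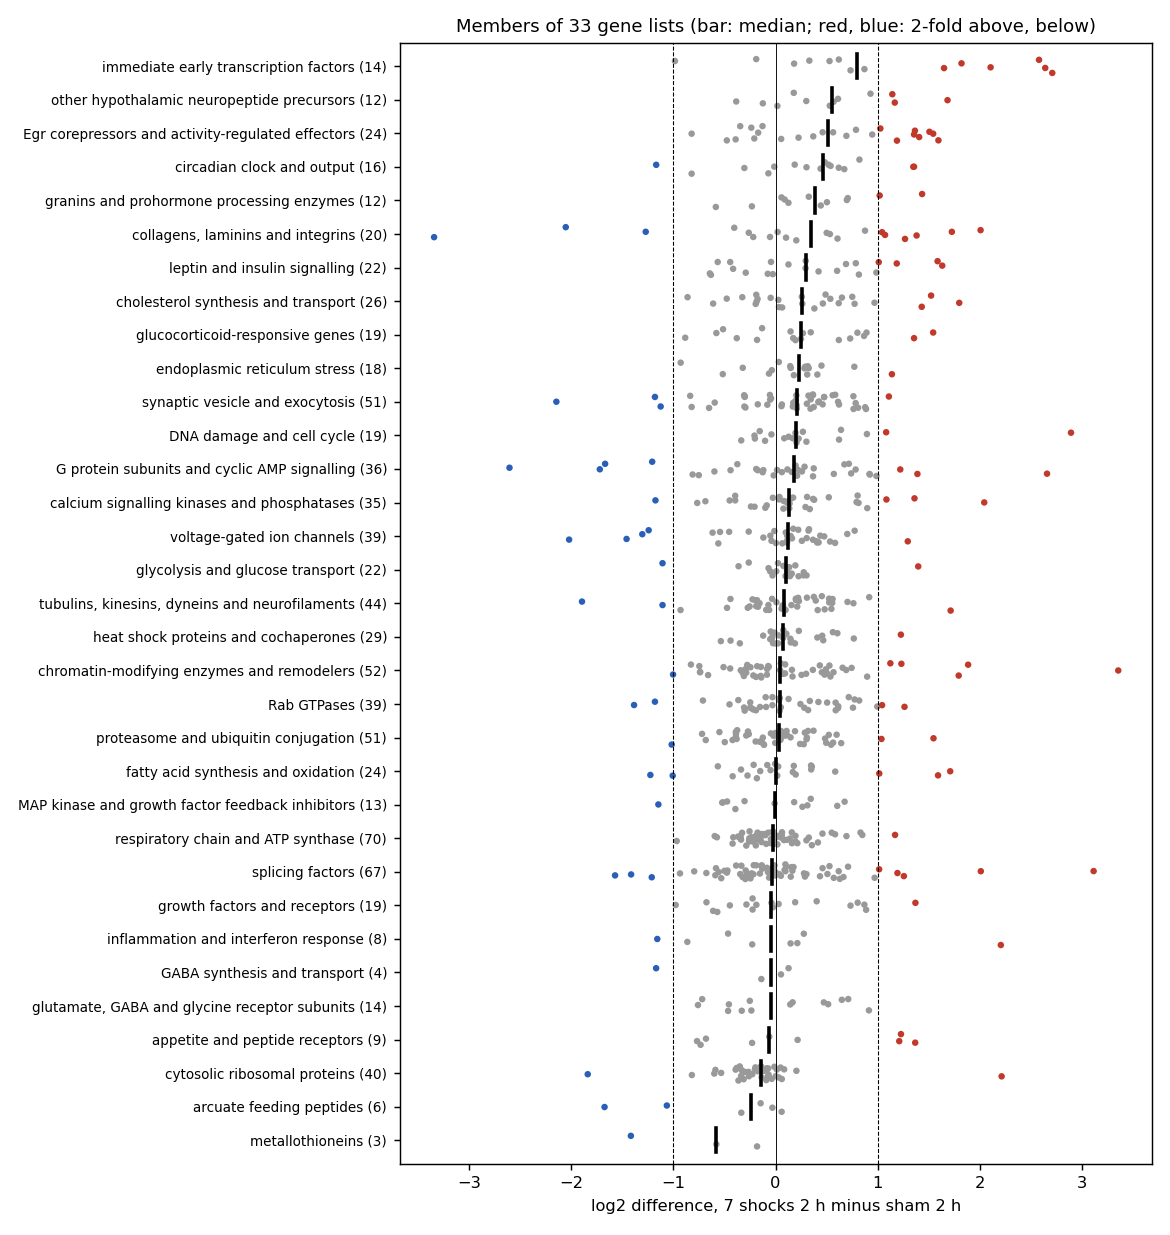
Log2 differences (7 shocks 2 h minus sham 2 h) of the measured members of 33 gene lists, with members per list in parentheses, a bar at each median and dashed lines at 2-fold. Immediate early factors have the highest median, 0.80, matrix genes spread from -3.35 to 2.01, and respiratory chain genes cluster at a median of -0.03.

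The tissue labels were checked against marker genes, since titles and tissue fields name the VMH and a descriptive field says PVN. The VMH factor Nr5a1 read 94.8 in sham and 123 after 7 shocks, the vesicular glutamate transporter Slc17a6 read 443 and 510, and the synapse organiser Cbln1 read 760 and 784. Of the paraventricular genes, Oxt read 16.4 in sham and 52.8 after 7 shocks, and the deposited signals of Avp were 7.1 and 54.8. Readings of different genes are not comparable, so these values do not settle which label is right. All 7 measured members of the VMH list were above 0 on their brightest probe sets, although Cbln1 had another at -0.09. Without the activity-regulated Bdnf, Nptx2 and Adcyap1 the other 4 differed by 0.05 to 0.61. Members too dim to be kept pointed both ways in deposited signals, which are not scaled. Rorb gave 13.5 in sham and 7.8 after 7 shocks, Sox14 4.1 and 1.9, and Dlk1 9.6 and 10. Esr1 gave 0.1 and 9.6 and Foxd2 0.2 and 0.6. General neuronal markers had a median of 0.27 over 15 genes, with 0 past 2-fold on the brightest probe set, against 13.3% of all genes. Other probe sets gave 1.79 for Elavl3 and as low as -0.72 for Elavl4. Most of the 15 were bright, and in the brightest of the 4 groups of genes only 2.59% passed 2-fold.

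Microglia markers were the cell type list with the most members past 2-fold, 5 of 14 below sham (35.7%, against 6.72% of all genes) and 0 above, with a median of -0.53 that was -0.02 without rescaling. P2ry12, a receptor of resting microglia, read 68.7 in sham and 14.5 after 7 shocks (log2 -2.24), with 41.0, 33.9 and 17.9 on the other arrays. The membrane protein Cd53 read 154 and 30.4 (log2 -2.34), Aif1 71.2 and 23.7 (log2 -1.58), and the Fc receptor Fcgr3 lay at -1.34. Csf1r, the receptor that keeps microglia alive, read 653 and 227 (log2 -1.52), but its second probe set gave 0.10. The complement gene C1qb and Laptm5 went the other way at 0.90 and 0.82, but the 3 probe sets of C1qb reached down to -0.56. Of the 14, 4 were above 0. The summed reading of all 14 was 2591 in sham and 2391 after 7 shocks. Bright genes such as Csf1r and C1qb weigh most in this sum. Markers too dim to be kept pointed both ways in deposited signals, which are not scaled for the brighter treated array. Cx3cr1 was listed at 0.4 in sham and 44.4 after 7 shocks and Trem2 at 1.4 and 7.0, whereas Cd68 gave 18.7 and 10.6 and Itgam 8.7 and 3.0. Tmem119 gave 14.5 and 21.2, C1qa 22.9 and 27.1 and Selplg 27.4 and 26.8. In pooled tissue, fewer cells of a type and less RNA per cell cannot be told apart.

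Endothelial markers had 2 of 7 past 2-fold below sham (28.6%, against 6.72% of all genes). These were the transporters Slco1a4 at -1.59 and Abcb1a at -1.03. The list median was -0.38 and turned to 0.13 without rescaling. With no filter on low values the list had 17 members, a median of -0.08, 4 past 2-fold above and 1 below. In deposited signals, which are not scaled, dim Vwf gave 0.5 in sham and 24.2 after 7 shocks, and Cdh5 1.6 and 18.8. Tek at 13.1 and 13.7 and Flt1 at 29.5 and 32.5 rose by less than the shift between the arrays. Astrocyte markers were spread around a median of -0.19 over 20 genes. Vim, an intermediate filament of astrocytes and tanycytes, was past 2-fold above at 1.02, with 0.75 to 1.70 over 3 probe sets, the transporter Slc1a2 lay at 0.75 and the enzyme Aldh1l1 at -0.81. The tanycyte gene Crym, also made by neurons, read 29.4 and 67.0 (log2 1.19). Of arcuate markers, 2 of 4 were past 2-fold below sham, against 6.72% of all genes, the Tac2 and Npy given above. The sums over the 4 were 785 and 618, in which Pomc, the brightest, weighs most. Markers of neighbouring or distant neurons gave mixed values. Tcf7l2, strong in thalamus, lay at 1.27 with 0.00 on its second probe set. In the same list Rora lay at 0.30, with -0.02 on its second probe set, and Zic1 at -0.01. Of 6 cortical, hippocampal or amygdalar genes 4 were above 0, with a median of 0.40. Tbr1 lay at 0.77, and Rasgrf2 at -1.10 was the only member past 2-fold on its brightest probe set (16.7%, against 6.72% of all genes). Other probe sets reached 1.17 for Mef2c and 2.04 for Cux1. Among those too dim to be kept, deposited Neurod2 was 12.9 and 46.7 and Neurod6 26.1 and 54.6, whereas Neurod1 was 26.4 and 20.6. Whether the cut of the tissue had a part in the peptide and microglia values was not tested.

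**Figure D4:**
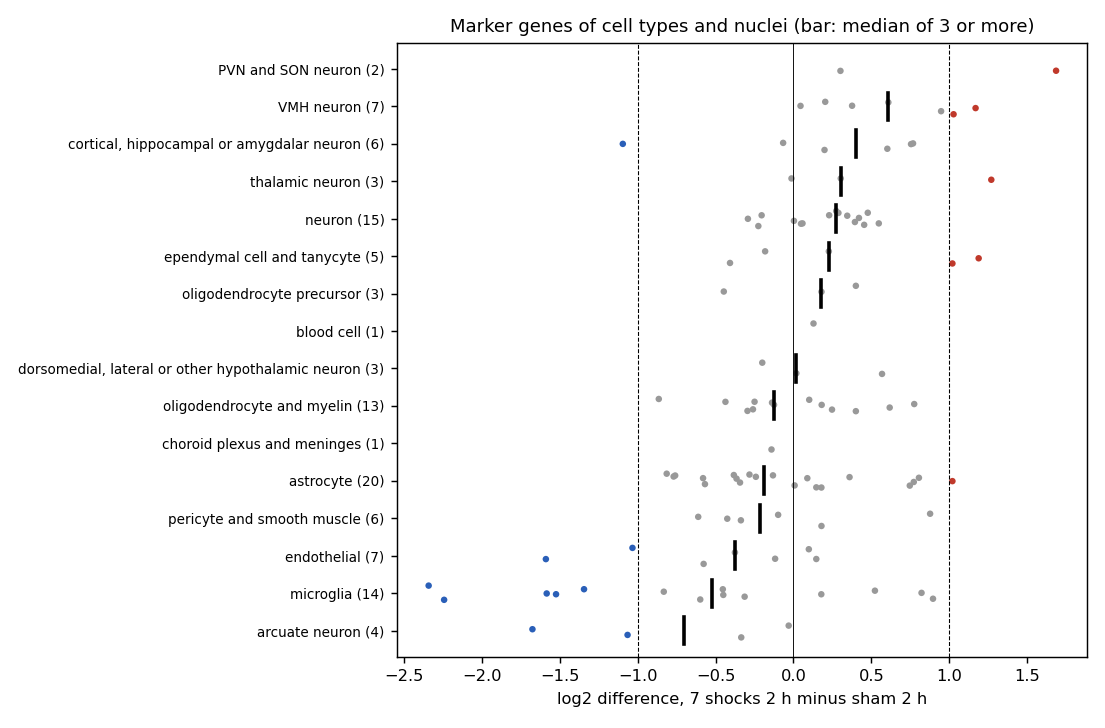
Log2 differences (7 shocks 2 h minus sham 2 h) of marker genes of 16 cell types and nuclei, with measured members in parentheses, bars at the medians of lists of 3 or more and dashed lines at 2-fold. Of the 14 microglia markers 5 lie below -1, while the 15 neuronal markers lie between -0.29 and 0.55.

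Because a gene can be read by several probe sets, the arrays give a check of the probes, though not of the animals. Of 2470 genes with 2 or more kept probe sets, 225 were past 2-fold on the brightest, and 109 of these (48.4%) had all probe sets on 1 side. On the second probe set, 55.6% of the 225 had the same sign. Across all 2470 genes the correlation of both probe sets was 0.13, and split into 4 equal groups by the brightness of the second probe set it was 0.03 in the dimmest and 0.38 in the brightest. On the Gapdh control probe sets the ratio of 3′ to 5′ signal was 6.67 in sham and 5.88 on the treated array. For actin the same ratio was 0.80 and 0.78. Whether these ratios bear on the agreement of probe sets was not tested. All kept probe sets were past 2-fold in the same direction in 16 genes above and in 16 below, each 0.648% of the 2470.

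Among those above, Gfm1, an elongation factor of mitochondrial translation, gave 2.34 and 2.39. Tnnt2, the cardiac form of troponin T, read 18.6 in sham and 78.4 after 7 shocks and gave 2.02 and 2.08 on its probe sets. It read 77.2 at 2 h after 1 shock, so the 2 h arrays after 1 and 7 shocks were close on that probe set. The other gave 53.6 and 78.4 on these arrays. Beside Jun and Lss, described above, the ubiquitin ligase Rnf19b gave at least 1.63, the growth cone protein Dpysl3 at least 1.40 and the creatine transporter Slc6a8 at least 1.34.

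The interleukin 17 receptor Il17ra gave at least 1.31, the phosphatidylcholine enzyme Pcyt1a 1.27, the TWEAK receptor Tnfrsf12a 1.26 and the tropomyosin Tpm2 1.04 as the smallest of their probe sets. Slc6a8 read 98.8 in sham and 276 after 7 shocks. In Rnf19b, Il17ra and Tnfrsf12a the treated array was the highest of 5 on the brightest probe set. The second probe set of Rnf19b read 65.1 there and 71.1 at 2 h after 1 shock.

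Among those below, the chemokine-like factor Cklf read 62.2 in sham and 12.6 after 7 shocks, and its 3 probe sets gave -3.73 to -1.35. The polycomb protein Cbx7 gave -2.55 and -1.14. Isl1, a LIM homeodomain factor of arcuate and other hypothalamic neurons, read 200 in sham and 73.9 after 7 shocks and gave -1.44 and -1.26. Its readings on the other arrays were 85.2, 136 and 58.8, so sham was the highest of 5 on that probe set. The second probe set read 35.6 in sham and 87.2 at 6 h after 1 shock.

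The SNARE protein Use1, which works in traffic between the Golgi and the endoplasmic reticulum, read 551 in sham and 215 after 7 shocks, with 425 to 529 on the other 3 arrays and -1.36 and -1.25 on its probe sets. Lamtor5, of the Ragulator complex that anchors mTORC1 to lysosomes, gave -1.37 and -1.25 in the same way. The thioredoxin reductase Txnrd1 gave -1.22 and -1.15, the receptor Tgfbr1 -1.58 and -1.31, and Rbm6, Kansl1l, Eral1, Anapc15 and Ints13 each had all probe sets between -1.66 and -1.09. For Use1, Lamtor5 and Anapc15 the treated array was the lowest of 5 on the brightest probe set. The second probe set of Anapc15 read 44.5 there and 39.8 at 6 h after 7 shocks.

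**Figure D5:**
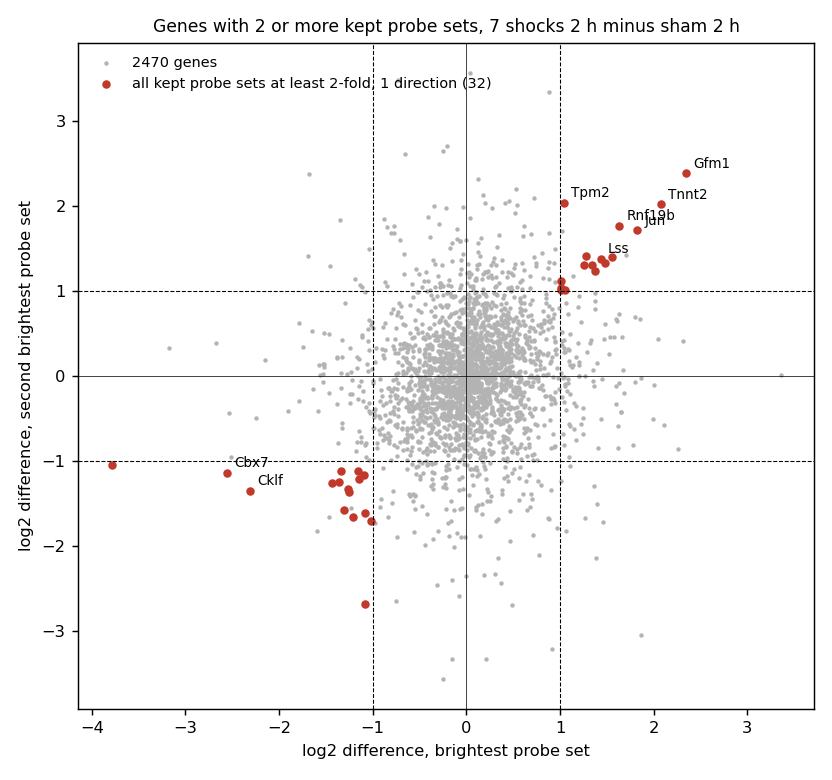
Log2 difference (7 shocks 2 h minus sham 2 h) on the brightest probe set (x axis) and the second brightest (y axis) of 2470 genes, with the 32 genes whose kept probe sets all passed 2-fold in 1 direction in red. The cloud is nearly round, with a correlation of 0.13, and Gfm1, Tnnt2 and Jun lie at its upper right corner.

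Among genes at or above the median brightness on both arrays, those furthest above sham beside Egr1, Hadh, Sgk1 and Slc6a8 were Pgd, Timm17b, Dock9, Snrk, Tob2, Rassf3, Ampd2 and Thoc3. Pgd, an enzyme of the pentose phosphate pathway, read 145 in sham and 472 after 7 shocks (log2 1.70), and its 4 probe sets gave 0.05 to 2.30. Ampd2, an AMP deaminase, gave 1.48 and 0.61, and the antiproliferative factor Tob2 gave 1.52 and as little as 0.26. Timm17b at 1.68, Snrk at 1.65 and Thoc3 at 1.45 each had a probe set below 0. The log2 difference of Dock9 was 1.67, with another probe set at 0.07, and Rassf3, with 1 probe set, gave 1.51.

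Furthest below sham in this brighter set were Scaf4, Snhg6, Hdlbp, Sec61b, Cers4, Cep350, Csf1r, Serf2, Snapc2, Bad, Use1 and Dhx30. Snhg6, a host gene of small nucleolar RNA, read 878 in sham and 221 after 7 shocks (log2 -1.99). Sec61b, of the translocation channel of the endoplasmic reticulum, read 593 and 193 (log2 -1.62), and the ceramide synthase Cers4 542 and 182 (log2 -1.58). Each of these 3 had 1 kept probe set and its lowest reading of 5 on the treated array. Bad, a promoter of apoptosis, gave -1.38 and -0.79. Scaf4 at -2.25, Hdlbp at -1.75, Cep350 at -1.53, Serf2 at -1.52, Snapc2 at -1.46 and Dhx30 at -1.32 each had a probe set above 0, which for Snapc2 was 1.30.

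The treated array was at least 2-fold above each of the other 4 in 38 genes, among them Pde10a, Cxcl12 and Rpl12, and at least 2-fold below each of them in 57, among them Kcnip3, Mt3 and Cd53. Of the 3 further arrays only that of 1 shock at 2 h shares its time with both sides, and these counts describe order only.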

How the data were processed

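Mouse VMH RNA was measured on Affymetrix arrays, 1 pooled array per group. The authors deposited a table of 22690 probe sets with MAS5 intensity values on a linear scale, per the submitters' processing notes. The sources used here give neither software version nor target intensity. Probe sets were named by GEO's platform annotation: 20380 had 1 symbol (20351 matched RefSeq by gene ID), and 691 with several symbols, 1555 with none and 64 controls were left out of gene counts. A pseudocount of 1.2 (the 10th percentile) was added, log2 taken, the top 50% by mean over 5 arrays kept (10402 probe sets) and each array centred on its kept median. Python 3.11.15, numpy 2.4.6, pandas 2.3.3, scipy 1.17.1, statsmodels 0.14.6 and matplotlib 3.10.9 were used, and the code was checked on simulated data. The number of arrays limits the precision.

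Named were list members past 2-fold and the 3 furthest from 0 in each list, 12 genes per direction by their smallest probe set difference, and 12 per direction among brighter genes; other list members are named for contrast. The members, the 49 lists and the tests were chosen with earlier results of these data known. The alternatives were other scalings, pseudocounts and filters, the mean of a gene's probe sets and leaving out probe sets with the suffix _s_at, _x_at or _a_at. Members picked only as among the 3 furthest of a list are given in part, and 1 gene picked by its probe sets is not reported here.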

Additional observations from a re-analysis of the deposited data

Results flagged for a closer look

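Probe sets with several gene symbols or none took no part in the gene counts. Of 911 such probe sets bright enough to be kept, 41 (4.50%) were at least 2-fold above sham after 7 shocks and 46 at least 2-fold below. They were picked out because they lie outside the genes described above and read above the sham array, and no gene is named for them.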

How the results depend on the processing

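The counts of 437 genes above and 447 below, their 49.4% share above, and the 16 and 16 genes with all probe sets past 2-fold kept within 1.5 times, or 10 percentage points for the share, under quantile and cyclic loess normalization, trimmed mean scaling, a pseudocount of 0 and the filter over the 2 arrays compared. Without rescaling they were 1324, 143, 90.3%, 100 and 0, where the median of all genes moved from 0.01 to 0.51. With no filter on low values the counts were 1617, 1616, 96 and 84 over 12393 genes, and in the top 25% by mean 99, 107, 4 and 2 over 3516. A pseudocount at the 25th percentile gave 10 genes with all probe sets above, and leaving out probe sets with the suffix _s_at, _x_at or _a_at gave 7 above and 6 below. Of 155 named genes past 2-fold, leaving out those probe sets turned Cox8a to -0.75, Dbp to 0.21, Hadh to -0.40, Snapc2 to 1.30 and Timm17b to -0.21, those still measured kept their sign under the other alternatives, and the mean of a gene's probe sets took 32 under 2-fold, no rescaling 39 and the pseudocount at the 25th percentile 20. Bdnf, Pcsk1 and Foxo1 were under 2-fold with trimmed mean scaling and with the larger pseudocount. For lists of 3 or more genes, each median was set against an interval from the ordered values of its members. Without rescaling 27 list medians left it and 19 stayed inside. With no filter on low values 3 left it and 43 stayed, without the suffixed probe sets 2 and 42, and in the top 25% by mean 1 and 37. Under the other alternatives 0 left it. No paired analysis was possible because each group has 1 array and no test was made. Signals near the floor limit the dim genes.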
